A study of Mus musculus with 6 samples.

Results

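The SOCS family of cytokine feedback inhibitors has 8 members in the mouse, Cish and Socs1 to Socs7, and all 8 were among the 18194 genes named on the array. The members were taken as every probe set whose platform annotation gave 1 of these symbols and no other gene, which came to 24 of 45101 probe sets. Pancreatic islets, the clusters of hormone-secreting cells that lie within the exocrine pancreas, were isolated by collagenase digestion from pregnant mice at 12.5 days post coitum (dpc; 3 arrays) and from non-pregnant mice (0 dpc; 3 arrays), and the study asked what makes islets proliferate in pregnancy. Strain, age, genotype and any pooling of animals are absent from the labels. Whether the 3 replicates are different mice is not stated either, so each p-value rests on variation among arrays that could be purely technical. Each array reports an MAS5 signal per probe set, a background-corrected intensity scaled to a common mean, and the number of arrays limits the precision.

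SOCS proteins share a central SH2 domain, which docks on phosphorylated tyrosines, and a C-terminal SOCS box, which recruits elongins B and C and a cullin to form a ubiquitin ligase. Cytokine and lactogen receptors activate JAK kinases, which phosphorylate STAT transcription factors, and the STATs in turn induce some SOCS genes, whose products then shut the receptor off. In islets the prolactin and growth hormone receptors signal through JAK2 and STAT5, and placental lactogen acts on this route in pregnancy.

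Most STAT dimers bind a palindrome of the form TTCNNNGAA, which reads the same on both strands. RefSeq start-site windows (250 bases before to 50 after each gene's annotated start, GRCm38.p6) were read for 4 of the 8 members, Cish, Socs1, Socs3 and Socs4. No window was read for Socs2, Socs5, Socs6 or Socs7, so Socs2, which also rose, is absent from this comparison. That does not mean that these genes have no window or no match. The comparison covers the 4 members read and does not stand for the family. The Cish window held 2 matches, the Socs3 window 1, and the Socs1 and Socs4 windows none. Of 32851 such windows in the table, 8.3% held at least 1 match and 0.457% at least 2. The sequences of Cish and Socs3 are shown because they carry these matches in the gene of the family that rose most and in a member that did not pass the test. They are printed 5′ to 3′ on the gene's strand, with the palindromes in capitals, for Cish at chr9:107296409-107296678 (plus strand) and for Socs3 at chr11:117969367-117969616 (minus strand).
Cish: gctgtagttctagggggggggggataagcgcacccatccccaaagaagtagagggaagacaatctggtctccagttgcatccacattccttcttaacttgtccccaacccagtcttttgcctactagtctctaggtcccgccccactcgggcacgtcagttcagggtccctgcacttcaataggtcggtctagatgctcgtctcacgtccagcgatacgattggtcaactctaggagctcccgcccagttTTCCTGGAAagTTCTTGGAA
Socs3: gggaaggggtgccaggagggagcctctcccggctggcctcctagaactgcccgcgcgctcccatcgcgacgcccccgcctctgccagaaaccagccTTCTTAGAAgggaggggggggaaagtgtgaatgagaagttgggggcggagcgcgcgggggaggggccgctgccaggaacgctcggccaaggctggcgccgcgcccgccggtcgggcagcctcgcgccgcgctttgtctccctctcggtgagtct
In Cish the palindromes TTCCTGGAA and TTCTTGGAA covered bases 1 to 9 and 12 to 20 of the annotated transcript, whereas the Socs3 palindrome TTCTTAGAA began 154 bases before the start. A match describes letters in this window only, and no binding was measured here.

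Cish and Socs2 rose in pregnant islets, and no member passed the test in the other direction. Of the 24 probe sets, 21 passed a filter that kept the brightest 60% on the array, and 4 of these 21 (19%) were higher at an adjusted p under 0.05 in limma, a linear model with moderated variances, while 0 were lower. Among all 27022 probe sets tested, 9.57% passed the same threshold, 4.79% higher and 4.78% lower. The 4 calls came from 2 genes, 1 from Cish and 3 from Socs2, so they are not 4 independent observations. In 8 of the 24 probe sets the 3 pregnant and 3 non-pregnant arrays did not overlap, 5 higher and 3 lower, a share of 33.3% against 20.9% of all 45037 probe sets (8.88% higher, 12% lower).

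**Figure D1:**
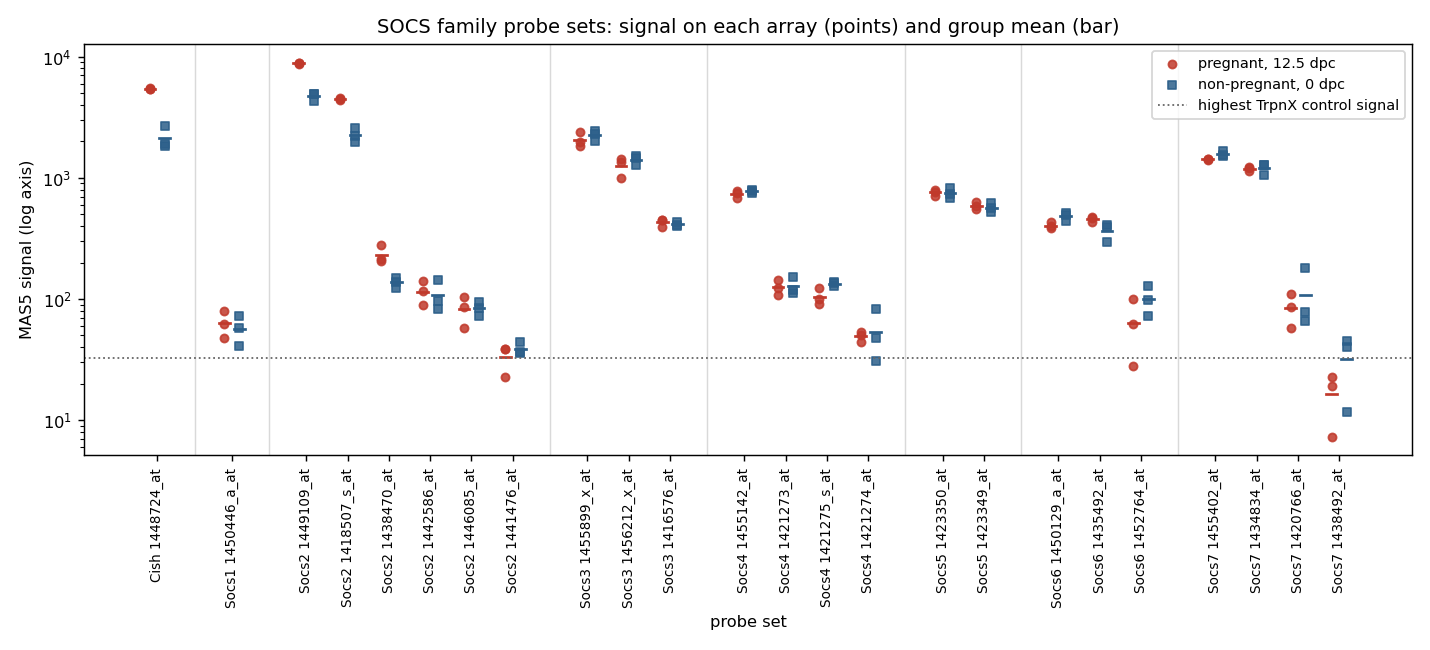
MAS5 signal (log axis) of all 24 SOCS family probe sets, ordered by gene, with 1 point per array (3 pregnant in red, 3 non-pregnant in blue), the group mean as a bar and the highest signal of a bacterial control transcript (32.3) as a dotted line. For Cish and 3 Socs2 probe sets every pregnant array lies above every non-pregnant array.

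Cish encodes CIS, which docks on activated cytokine receptors and competes with STAT5 for its binding sites. Its single probe set (1448724_at) had signals of 5542, 5384 and 5438 in pregnant and 1889.6, 1829 and 2675 in non-pregnant islets. The pregnant arrays lay within a narrow band, and non-pregnant replicate 3 was the highest of its group but still below every pregnant array. Means were 5455 ± 80.3 in pregnant and 2131 ± 472 in non-pregnant islets (SD, n = 3 each), a ratio of 2.56. Changes are given on the log2(signal + 16) scale, where 16 is a pseudocount that understates changes of dim probe sets. The difference for Cish was 1.37 ± 0.12 (SE, 95% interval 1.12 to 1.63, limma adjusted p = 1.9e-05). That made Cish the 88th largest rise of the 27022 probe sets tested, and 86th of them by p-value.

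Socs2 encodes a regulator of growth hormone signalling that promotes breakdown of the growth hormone receptor, and it had 6 probe sets. The brightest (1449109_at) gave 8680.0, 8916 and 8849 in pregnant and 4284, 4960.2 and 4891 in non-pregnant islets, with no overlap. It differed by 0.90 ± 0.07 on the log2 scale (95% interval 0.76 to 1.05, adjusted p = 5.5e-06 in limma), a ratio of mean signals of 1.87. A second probe set assigned to the same RefSeq transcript by the platform annotation (1418507_s_at) gave 4586, 4478 and 4374 in pregnant and 1977, 2220.2 and 2579 in non-pregnant islets. There the log2 difference was 0.99 ± 0.09 (95% interval 0.80 to 1.18, limma adjusted p = 2.7e-05), and the intervals of the 2 probe sets overlapped.

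The other 4 Socs2 probe sets each have an accession of their own in the platform annotation and were dimmer. Probe set 1438470_at had 213, 206 and 277 in pregnant and 149.8, 124 and 138 in non-pregnant islets, also without overlap, and a log2 difference of 0.69 ± 0.18 (limma adjusted p = 0.035). This call rested on individual arrays. The limma adjusted p was 0.077, 0.061 and 0.14 without pregnant replicates 1, 2 and 3, and 0.1 and 0.074 without non-pregnant replicates 2 and 3, with differences of 0.56 to 0.76. Probe set 1442586_at had 141, 88.9 and 116 in pregnant and 95.8, 142 and 82.7 in non-pregnant islets, and 1446085_at had 57.3, 85.8 and 103 in pregnant and 72.8, 84.5 and 93.9 in non-pregnant islets. These did not pass, at 0.11 ± 0.26 and -0.05 ± 0.27 on the log2 scale (limma adjusted p = 0.86 and 0.95), and their groups overlapped. Their 95% intervals, -0.46 to 0.67 and -0.65 to 0.55, are wide, and the upper bounds lie below the difference of 1449109_at. The last, 1441476_at, had 22.8, 38.4 and 38.4 in pregnant and 35.8, 36.5 and 44.2 in non-pregnant islets, was below the filter and overlapped between the groups. Averaged over the 5 tested probe sets, Socs2 was 0.53 ± 0.10 higher (limma adjusted p = 0.0066).

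Markers of islet cells were present on every array, for example Ins2 at 18173, 21728 and 21629.5 in pregnant and 18872, 20497 and 16958 in non-pregnant islets and Gcg at 47279.9, 44756 and 47730.5 in pregnant and 48005, 49732 and 46294 in non-pregnant islets. The summed signal of 8 beta cell markers was 169952 to 172601 in pregnant and 166724 to 177298 in non-pregnant arrays, which overlapped, and 0 of the 8 rose and 2 fell, the glucose transporter Slc2a2 (-0.25 ± 0.05, limma adjusted p = 0.0063) and the zinc transporter Slc30a8 (-0.29 ± 0.06, 0.01). Of 6 markers of islet cells other than beta cells 0 rose and 1 fell, the hormone gene Ghrl (-1.14 ± 0.16, limma adjusted p = 9.8e-04). The hormone genes of alpha, delta and PP cells, Gcg, Sst and Ppy, had -0.04 ± 0.05, -0.04 ± 0.04 and -0.01 ± 0.08. Of 15 acinar markers tested 13 fell (0 rose), with Cela1 for example at -1.08 ± 0.17, and their summed signal was 94680.2 to 151468 in pregnant and 160143 to 300132 in non-pregnant arrays. Of 10 macrophage markers 1 rose, the complement chain C1qa (1.06 ± 0.08), and the sum was 9947 to 10847 in pregnant and 6670.1 to 7282 in non-pregnant arrays. C1qa carried that difference: the other 9 summed to 2996 to 3322 in pregnant and 3411 to 3549.8 in non-pregnant arrays, lower on every pregnant array, and the median log2 difference of the list was -0.19. Of 11 stellate and fibroblast markers 3 fell, and the sum was 10261 to 13176 in pregnant and 14670.0 to 15026 in non-pregnant arrays. Duct markers summed to 17840.4 to 18592 in pregnant and 15891 to 16691 in non-pregnant arrays (1 of 5 rose and 1 fell) and endothelial markers to 8444 to 9374 in pregnant and 9434 to 10226 in non-pregnant arrays (1 of 9 fell). Of 9 lymphocyte markers on the array 6 were below the filter, among them Cd3e and Cd4, and 0 of 3 tested passed in limma. Among all 12914 genes tested, 6.1% rose and 5.79% fell. The part of these markers in the rises of Cish and Socs2 was not tested, and the acinar covariate given next could not test it. The ratio of 3′ to 5′ control probe sets was 1.630 to 1.665 in pregnant and 1.556 to 1.626 in non-pregnant arrays for beta actin, without overlap, and 0.687 to 0.725 in pregnant and 0.669 to 0.711 in non-pregnant arrays for Gapdh, and its part in the results was not tested either.

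The calls of Cish and of the 2 bright Socs2 probe sets held under all alternatives tried. Cish differed by 1.27 to 1.60 over 17 alternatives, Socs2 1449109_at by 0.80 to 0.98 and 1418507_s_at by 0.90 to 1.09, and each passed in all 17. The highest limma adjusted p among these was 0.019 for Cish, 0.014 for 1449109_at and 0.0199 for 1418507_s_at, in each case without a trend of variance on signal. With the median of acinar markers on each array as a covariate Cish had 1.60 (limma adjusted p = 0.0015) and Socs2 1449109_at 0.80 (0.0047). That median, of log2 values centred on each marker's mean, was -0.90 to -0.27 on pregnant and -0.12 to 1.07 on non-pregnant arrays. The groups did not overlap in it, so this fit cannot tell acinar content from pregnancy. In such whole-islet RNA, more cells of a type that expresses a gene and more RNA per cell cannot be told apart.

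**Figure D2:**
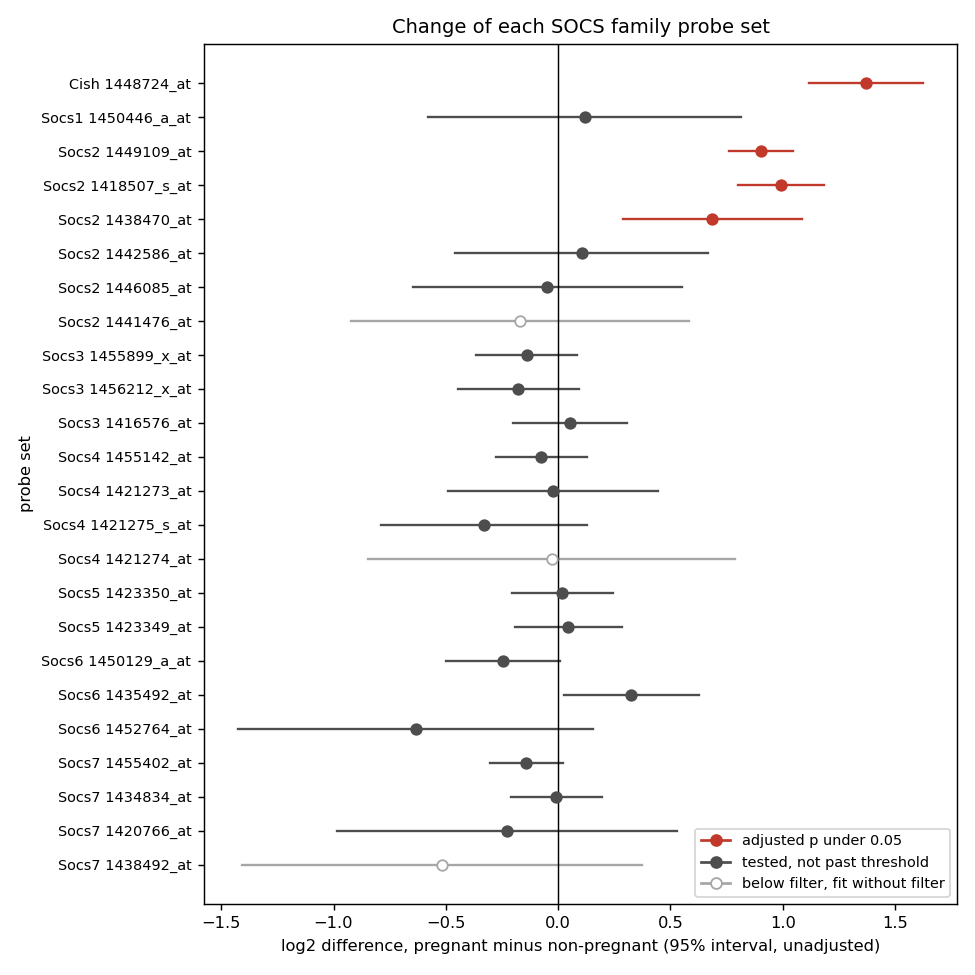
Log2 difference between pregnant and non-pregnant islets for each of the 24 SOCS family probe sets, with unadjusted 95% intervals from limma. The 4 probe sets in red (Cish and 3 of Socs2) passed the threshold, the 17 in dark grey did not, and the 3 open circles were below the filter and come from the fit without it.

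Of the 17 member probe sets tested and not called, 16 had a 95% interval within 1 log2 unit of 0 on both sides. This count was made with the pseudocount of 16, which narrows the changes of dim probe sets. The exception was Socs6 1452764_at. Socs7 1420766_at was barely within it, and its interval without the filter was -1.07 to 0.62. Socs1 and Socs3 did not pass with any of their 4 probe sets. Both encode SOCS proteins with a kinase inhibitory region that blocks JAK directly, Socs1 chiefly after interferon and Socs3 after cytokines that signal through gp130, and after leptin. The single Socs1 probe set (1450446_a_at) had signals of 47.8, 61.8 and 78.9 in pregnant and 58.0, 71.9 and 40.7 in non-pregnant islets, all above the bacterial controls (at most 32.3) but dim. The groups overlapped, and the log2 difference of 0.12 ± 0.32 had a 95% interval of -0.58 to 0.81 (limma adjusted p = 0.88), wide enough to hold a change in either direction.

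Socs3 had 3 probe sets, all tested. The brightest (1455899_x_at) had 1826, 2379.7 and 1963 in pregnant and 2448, 2022 and 2315 in non-pregnant islets and a log2 difference of -0.14 ± 0.10 (95% interval -0.37 to 0.08, limma adjusted p = 0.47). Probe set 1456212_x_at had 1418, 1362 and 999 in pregnant and 1445, 1284 and 1514 in non-pregnant islets, and 1416576_at had 391.7, 450.2 and 448 in pregnant and 409, 431 and 401 in non-pregnant islets. The log2 differences were -0.18 ± 0.12 (-0.45 to 0.09) and 0.05 ± 0.12 (-0.20 to 0.31), with limma adjusted p-values of 0.44 and 0.85. The groups overlapped in all 3, and no upper bound exceeded 0.31, so a rise of the size measured for Cish or Socs2 lies outside these intervals. The suffix x marks probe sets whose probes may also match other transcripts, which applies to 2 of the 3.

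Socs4 to Socs7, which have longer N-terminal regions and are linked mainly to growth factor and insulin receptors, had 13 probe sets, of which 11 were tested and 0 passed. Their log2 differences ran from -0.63 to 0.33 with limma adjusted p-values of 0.18 to 0.97. Socs4 and Socs5 can restrain the epidermal growth factor receptor. The brightest Socs4 probe set (1455142_at) had 774, 745 and 687 in pregnant and 789, 785 and 749.8 in non-pregnant islets, a difference of -0.07 ± 0.09 (95% interval -0.28 to 0.13). Socs4 1421275_s_at had 100.4, 122 and 90.1 in pregnant and 135, 139 and 129 in non-pregnant islets. It was lower on every pregnant array, but by an amount that did not pass (-0.33 ± 0.21, limma adjusted p = 0.4). Probe set 1421273_at, with 143, 122 and 108 in pregnant and 118, 152 and 112 in non-pregnant islets, differed by -0.02 ± 0.22 and overlapped. Probe set 1421274_at was below the filter, with 53.2, 44.3 and 50.3 in pregnant and 47.7, 82.0 and 31.0 in non-pregnant islets.

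Both Socs5 probe sets were close to no difference. Probe set 1423350_at had 761, 796 and 714 in pregnant and 676, 741 and 831 in non-pregnant islets, and 1423349_at had 584, 626 and 548 in pregnant and 564, 520.1 and 619 in non-pregnant islets. The groups overlapped in both. The log2 difference was 0.02 ± 0.10 (95% interval -0.21 to 0.24) for 1423350_at and 0.05 ± 0.11 (-0.19 to 0.28) for 1423349_at.

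Socs6, whose product binds components of insulin receptor signalling and the kinase KIT, was the one member whose probe sets separated the groups in opposite directions. Probe set 1450129_a_at had 382, 401 and 428 in pregnant and 441, 513 and 494 in non-pregnant islets, lower on every pregnant array. Probe set 1435492_at had 463, 477 and 432 in pregnant and 390.4, 406 and 298 in non-pregnant islets, higher on every pregnant array. The log2 differences were -0.25 ± 0.12 and 0.33 ± 0.14, and neither passed (limma adjusted p = 0.23 and 0.18). The contrast between the 2 probe sets was not tested. The third, 1452764_at, was dim and variable, with 61.7, 99.5 and 28.1 in pregnant and 129, 99.0 and 73.0 in non-pregnant islets, and a difference of -0.63 ± 0.36 (limma adjusted p = 0.34).

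Socs7, which binds insulin receptor substrates, had 4 probe sets, 3 of them tested. The brightest (1455402_at) had 1399, 1442 and 1428 in pregnant and 1520.4, 1659.7 and 1535 in non-pregnant islets. It was lower on every pregnant array, with a log2 difference of -0.14 ± 0.07 (95% interval -0.30 to 0.02, limma adjusted p = 0.29), which did not pass. Probe set 1434834_at had 1229.5, 1136 and 1196 in pregnant and 1053, 1272 and 1269 in non-pregnant islets, and 1420766_at had 109, 85.3 and 57.8 in pregnant and 66.0, 180.4 and 77.6 in non-pregnant islets. Both overlapped, with log2 differences of -0.01 ± 0.09 and -0.23 ± 0.35. The fourth, 1438492_at, gave 22.7, 19.3 and 7.3 in pregnant and 44.7, 39.8 and 11.6 in non-pregnant islets, of which 4 of 6 values were within the range of the bacterial controls, and it was not tested.

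The rise of Cish was set against each other member array by array, using the brightest tested probe set of each and the difference of their log2 values within an array. Relative to Socs2, Cish was 0.47 log2 units further up in pregnant than in non-pregnant islets. The within-array differences were -0.73 to -0.65 on pregnant and -1.43 to -0.87 on non-pregnant arrays, without overlap. Against Socs1, Socs3, Socs4, Socs5, Socs6 and Socs7 the excess of Cish was 1.25, 1.51, 1.45, 1.35, 1.62 and 1.51 log2 units. The Socs6 value depended on the probe set: with 1435492_at, the second brightest, in place of 1450129_a_at it was 1.04. All 7 pairs separated the groups, and each had a 2-sided exact permutation p of 0.1 (0.1 adjusted over the 7 pairs by Benjamini-Hochberg), which is the smallest that 3 against 3 arrays allow, so none could pass 0.05. The pairs share the Cish values and are not independent.

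**Figure D3:**
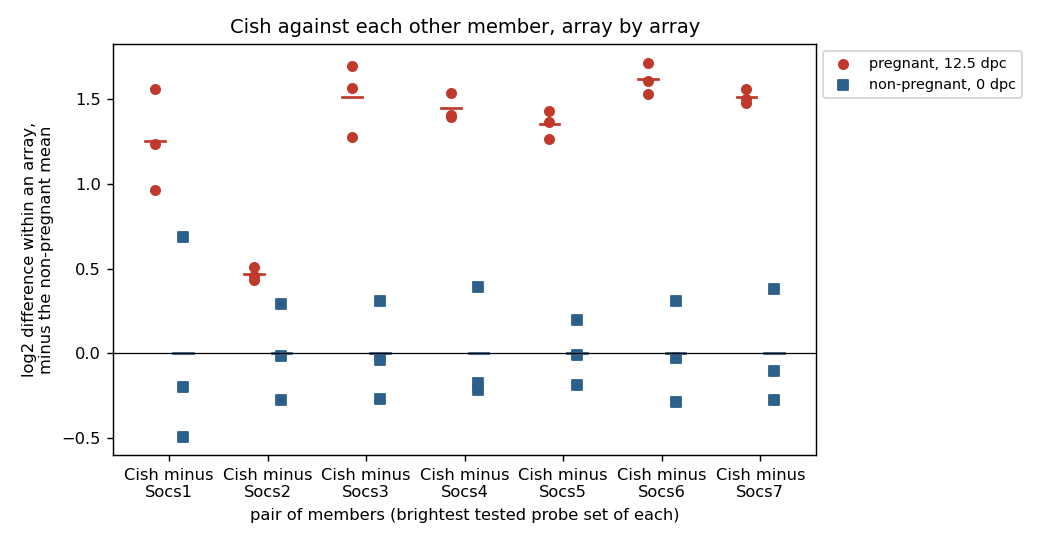
Within-array log2 difference between the brightest Cish probe set and that of each other member, with the mean of the non-pregnant arrays set to 0 (3 pregnant arrays in red, 3 non-pregnant in blue, means as bars). Pregnant arrays lie above non-pregnant arrays in all 7 pairs, by 0.47 for Socs2 and by 1.25 to 1.62 for the other members.

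The genes nearest in profile were found by the root mean square difference of log2 values over the 6 arrays, each gene centred on its own mean, among brightest probe sets. For Cish they were Mcm5, a subunit of the replicative helicase (0.128), Enox1 (0.134), the tetraspanin Tspan14 (0.143), Cdca8, a subunit of the chromosomal passenger complex (0.145), and the synaptic vesicle protein Synpr (0.161). For Socs2 they were the phospholipid flippase Atp8a1 (0.0571), the exonuclease Isg20 (0.0618), Srbd1 (0.0638), Lsm6, an RNA-binding protein of the spliceosome (0.0664), and Arfgap3, a GTPase activator of the Golgi (0.0666). With 2 groups of 3 arrays this measure mostly reflects the size of the group difference.

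The genes around the family are given by list. Of the list genes named below with a call, Il6ra, Igfals and Tnfrsf11b passed in all 10 alternatives run on them, and each of the others missed the threshold without the variance trend, with the acinar covariate, or in both.

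Upstream, 1 of 19 cytokine receptor genes tested rose and 3 fell, with a median log2 difference of -0.04 against -0.04 over all 12914 genes, of which 11.9% passed (6.1% higher, 5.79% lower). Il6ra, the interleukin 6 receptor, had 3385, 3364 and 3260.3 in pregnant and 6422, 6899.9 and 5603 in non-pregnant islets and fell by 0.91 ± 0.08 (limma adjusted p = 1.6e-05). Il13ra1, a subunit of the interleukin 13 receptor, rose by 0.70 ± 0.14 (limma adjusted p = 0.0067), and the growth hormone receptor Ghr, a client of SOCS2, fell by 0.36 ± 0.06 (limma adjusted p = 0.0029), with 6624, 7000.0 and 7016 in pregnant and 8233, 9295 and 9039.9 in non-pregnant islets. Osmr, the oncostatin M receptor, fell by 0.61 ± 0.17 (limma adjusted p = 0.038), and leaving out any 1 array raised that to between 0.063 (without pregnant replicate 3) and 0.12 (without pregnant replicate 1). The prolactin receptor was not analysed here.

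None of 9 JAK and STAT genes tested passed in limma, with a median of -0.17. Jak2, the kinase of the prolactin and growth hormone receptors, had a log2 difference of -0.10 ± 0.09, Stat5a -0.17 ± 0.15, Stat5b -0.30 ± 0.11 and Stat3 0.11 ± 0.09, with limma adjusted p-values of 0.56, 0.58, 0.1 and 0.53. Stat5b was lower on every pregnant array, with 777, 711 and 713 in pregnant and 846, 1045 and 846 in non-pregnant islets.

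Of the machinery that SOCS proteins recruit, 0 of 12 ubiquitin ligase genes passed in limma by their brightest probe sets, with a median of 0.02. Eloc and Elob, the elongins that bind the SOCS box, had 0.15 ± 0.06 and 0.14 ± 0.08 (limma adjusted p = 0.12 and 0.32). The cullin Cul5 had -0.05 ± 0.11, and the RING subunits Rnf7 and Rbx1 0.17 ± 0.06 and -0.19 ± 0.32 (limma adjusted p = 0.85, 0.12 and 0.78). The Rbx1 probe set was dim, with mean signals of 64.1 in pregnant and 77.3 in non-pregnant islets. Without non-pregnant replicate 1, 2 of the 12 rose, and with each gene averaged over its tested probe sets 1 rose, Rnf7 (0.25, limma adjusted p = 0.021). Among 19 other proteins with a SOCS box, 0 rose and 2 fell, with a median of -0.11. These were Asb9, an ankyrin repeat protein that binds creatine kinase (-1.58 ± 0.35, limma adjusted p = 0.014, and 0.064 without non-pregnant replicate 2), and Spsb1 (-0.41 ± 0.12, limma adjusted p = 0.047). With 1 array left out, Spsb1 passed only without pregnant replicate 1 and had a limma adjusted p of 0.051 to 0.17 without any other, and its probe sets averaged gave 0.97.

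Of 14 other inhibitors of JAK and STAT signalling tested, 0 rose and 1 fell, with a median of -0.06. The phosphatase Ptpn1 had -0.32 ± 0.08 (limma adjusted p = 0.021, and 0.077, 0.084, 0.072 and 0.066 without pregnant replicates 1 and 2 and non-pregnant replicates 2 and 3, one at a time). It did not pass with median centring (limma adjusted p = 0.11) or averaged over its tested probe sets (-0.20, limma adjusted p = 0.2). In the insulin and insulin-like growth factor relay, whose adaptors several SOCS proteins bind, 0 of 13 rose and 1 fell. The adaptor Grb14 had -0.30 ± 0.08 (limma adjusted p = 0.03), but with 1 array left out it passed only without non-pregnant replicate 1 and had 0.055 to 0.13 without any other array. Irs1 had -0.05 ± 0.13 and Irs2 -0.35 ± 0.12 (limma adjusted p = 0.88 and 0.098).

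**Figure D4:**
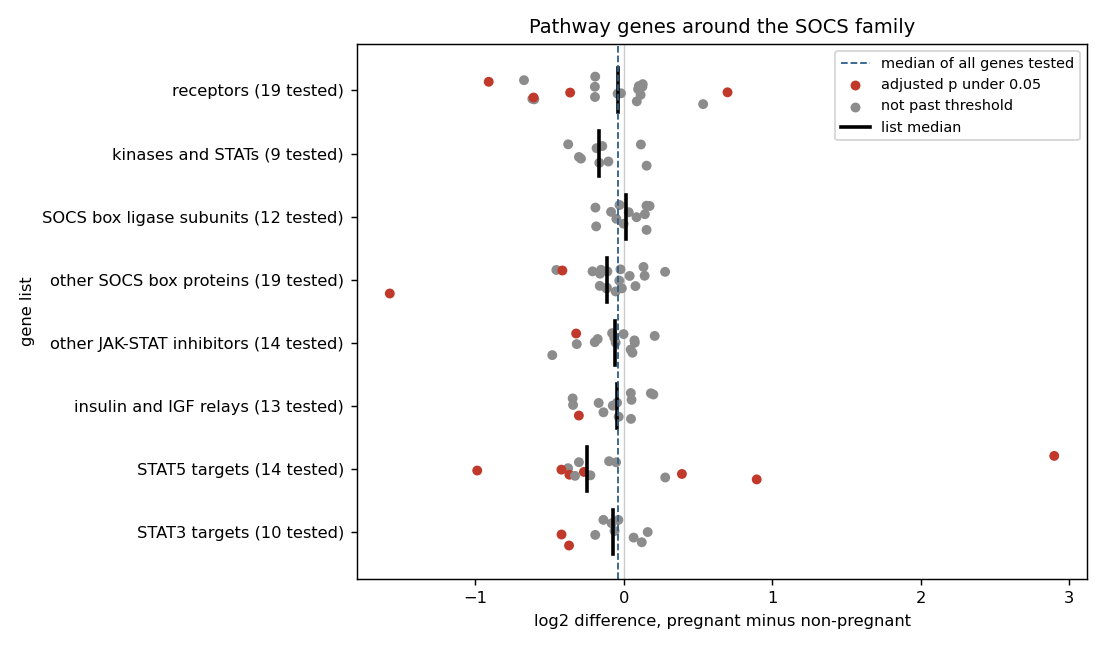
Log2 difference between pregnant and non-pregnant islets for each tested gene (brightest probe set) of 8 lists around the SOCS family, with genes past the threshold in red, the list median as a black bar and the median of all genes tested (-0.04) as a dashed line. The list medians lie between -0.25 (STAT5 targets) and 0.02 (SOCS box ligase subunits), and red points lie on both sides of 0.

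Cish and Socs2 are themselves STAT5 targets, and the other genes known as targets of STAT5 in some tissue had calls in both directions. Of 14 tested, 3 rose and 4 fell, with a median of -0.25, where 6.1% of all genes tested rose and 5.79% fell. Tnfrsf11b, the decoy receptor osteoprotegerin, had 1036, 1159 and 1072 in pregnant and 101, 124 and 181 in non-pregnant islets (log2 difference 2.90 ± 0.17, limma adjusted p = 1.1e-06). Igfals, the acid-labile subunit that carries insulin-like growth factors in blood, had 1833, 1915 and 1732 in pregnant and 989, 1033 and 905 in non-pregnant islets (0.89 ± 0.08, limma adjusted p = 4.0e-05). Cyclin D1, Ccnd1, rose by 0.39 ± 0.08, and the kinase Pim3 fell by 0.42 ± 0.06 (limma adjusted p = 0.007 and 0.0011). The others that fell were Id1, an inhibitor of basic helix-loop-helix factors (-0.37 ± 0.08), the survival factor Mcl1 (-0.27 ± 0.07) and the growth factor Igf1 (-0.99 ± 0.28). Averaged over its tested probe sets, Mcl1 had -0.15 and Igf1 -0.75, and neither passed (limma adjusted p = 0.14 and 0.15). Of the list, 0 fell without the variance trend (2 rose) and 1 with each array centred on its median. With the acinar covariate 2 fell, but of the 4 that fell in the main fit only Pim3 passed (limma adjusted p = 0.048). The count that fell was 1 without pregnant replicate 1 or without non-pregnant replicate 3. It was 2 without non-pregnant replicate 2, pregnant replicate 2 or pregnant replicate 3. Without non-pregnant replicate 1 it stayed at 4, and it was 3 with each gene averaged over its tested probe sets.

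Socs3 restrains the activation of STAT3. Of 15 STAT3 target genes on the array, 10 passed the brightness filter, of which 0 rose and 2 fell, with a median of -0.07, where 5.79% of all genes tested fell. The 5 below the filter, the fibrinogen chains Fgb and Fgg and also Hp, Lbp and Saa3, were dim and were not tested. Their mean signals, in that order, were 8.2, 3.97, 12.1, 40.9 and 62.3 in pregnant and 76.3, 91.8, 24.5, 48.3 and 38.3 in non-pregnant islets. Saa3 alone had the higher mean in pregnant islets, and the spread among arrays is not given. The early response genes Junb and Zfp36 had -0.42 ± 0.09 and -0.37 ± 0.08 (limma adjusted p = 0.015 and 0.016), and neither passed with median centring, nor without non-pregnant replicate 2, without pregnant replicate 1 or without pregnant replicate 3.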

How the data were processed

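The authors deposited 1 linear intensity per probe set and array, made with MAS5 according to the submitters' processing notes, from biotin-labelled cRNA made from 100 ng of total RNA per the labels' protocols. Which version of MAS5 was run is not given. Trimmed means (2%) already equalled 500.003 on each array, so no further normalization was applied. After 64 control probe sets were left out, log2(signal + 16) was taken and the brightest 60% (mean over the 6 arrays) were kept (27022 probe sets, mean signal of about 50.5 and above). The comparison used limma 3.58.1 under R 4.3.3 (eBayes with a variance trend), 2-sided, without covariates, with Benjamini-Hochberg adjustment over all probe sets tested and a threshold of 0.05. Errors are limma standard errors, or standard deviations of signals. The fit was run on simulated data with errors drawn from its own fitted variance model, which does not test that model on these arrays.

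Gene names came from the platform annotation (single symbols only, 34958 probe sets), checked by Entrez identifier against RefSeq, and 0 symbols changed. A gene in a list was represented by its brightest tested probe set. The 16 lists (219 genes), and the members, were chosen with earlier results of these data known, so a list's count is not independent evidence. One further list is not reported here. All member probe sets are named, with up to 4 called genes per list, a fixed set of pathway genes, and the 5 genes nearest to Cish and to Socs2. Alternatives were pseudocounts of 1 and 64, quantile normalization, median centring, no filter or a top 40% filter, eBayes untrended or robust, a replicate block, weighted arrays, an acinar covariate, and each array left out. Replicate numbers are shared between groups but did not pair the arrays. Sequences are from RefSeq (GRCm38.p6). Plots were made in Python 3.11.15 (matplotlib 3.10.9).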

Additional observations from a re-analysis of the deposited data

How the results depend on the processing

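Cish and the Socs2 probe sets 1449109_at and 1418507_s_at kept their direction and passed under all 17 alternatives. Socs2 1438470_at kept its direction but did not pass in 9 of 17, so the count of member probe sets higher was 3 or 4 and the count lower was 0 throughout. It had 0.69 (limma adjusted p = 0.086) with no filter, the same difference without the variance trend (0.066) and with the replicate block (0.051), and 1.00 with the acinar covariate (0.16). With 1 array left out, 3 or 4 member probe sets were higher. Of the 17 other tested member probe sets, 0 were called in limma under any alternative, although the estimate of the dim Socs7 1420766_at ran from -1.54 to 0.16.

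Counts over all probe sets moved more. The main counts were 1294 higher and 1293 lower (2587 in all). Without the variance trend 393 were higher and 210 lower (603 in all), and with the acinar covariate 350 and 161 (511). With median centring 583 were lower, and 71.0% of calls were higher, against 50.0% in the main fit and 68.5% with the acinar covariate and 65.2% without the trend. With 1 array left out, 808 to 1282 were higher, 674 to 977 lower and 1482 to 2259 called in all. Of the genes in the pathway lists, 4 rose and 13 fell. The counts were 2 and 2 without the trend and 3 and 3 with the acinar covariate, 4 fell with median centring, and with 1 array left out 4 to 6 rose and 4 to 11 fell. The causes were not tested. Median centring moved the median of all probe sets tested to 0.03, against -0.04 without it.

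The excess of Cish over each other member stayed positive in all 69 recomputations (0.33 to 1.77 log2 units), among them the use of each other member's second brightest tested probe set where it had more than 1, an alternative chosen after seeing the data. With the replicate number as a block the count of member probe sets higher was 3. The 3 same-numbered pairs of arrays had deviations that correlated at -0.03, -0.07 and 0.03, so the numbers are taken as names only. The dim probe sets of Socs1, Socs2, Socs4, Socs6 and Socs7 have signals near the controls, which limits what can be seen in them.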
